A study of Mus musculus with 18 samples.

Results

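Mouse organoids whose source was induced fetal intestinal progenitor cells (iFIPC) were compared with organoids from crypts of the adult intestine. Members were taken by sample title: 3 arrays titled iFIPC-derived SOs and BOs and 3 titled Crypt-derived BOs, which make 6 of the 18 arrays in the series. SOs are spherical organoids and BOs are budding organoids, so by their titles the iFIPC group includes both forms and the crypt group the budding form alone. Whether each iFIPC array held both is not given in the labels. Every sample was labelled C57BL/6, and total RNA was hybridised with Cy3 to a 1-colour Agilent mouse expression array. The series set out to make intestinal progenitor cells from mouse fibroblasts, and its other groups of 3 arrays are used here only for reference: SOs and BOs grown from fetal intestinal progenitor cells (FI), BOs grown from induced intestinal stem cells (iISC), and mouse embryonic fibroblasts (MEF). No treatment, sex, age, passage, clone or number of animals is given in the labels used here. Induced against native origin, fetal against adult stage, and mixed against budding form cannot be told apart between the iFIPC and crypt groups. The labels do not say whether the 3 arrays of a group came from separate cultures or animals, so p-values measure the spread between these samples only, which may be technical, and 3 arrays against 3 cannot go below 0.1 in an exact permutation test of a single gene.

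As background, the intestinal epithelium is renewed from Lgr5-positive stem cells at the base of crypts, which give rise to absorptive enterocytes and to Paneth, goblet, enteroendocrine and tuft cells. Crypts of the adult intestine grow as budding organoids that hold these cell types, whereas fetal intestinal epithelium grows as spheres that express Ly6a, Clu and other genes which also appear in regenerating adult epithelium, where the co-activator YAP and its DNA-binding TEAD partners are active. Cells also keep a record of their place in the body in their Hox genes, which lie in clusters and are expressed from anterior to posterior in the order of the cluster. Fibroblasts carry such a code from the trunk or limb they came from, and Cdx2 with its partners sets the intestinal identity of gut epithelium.

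Between 60.5% and 64.98% of gene probes were well above background on each of the 6 arrays, no gene probe was saturated, and each array's 75th percentile was 953.2 to 1161.8 in intensity units. A level is given below as log2 of the signal minus the array's 75th percentile, so 0 is that percentile and each unit is a doubling, and the lowest signal well above background lay between -6.86 and -6.09 on this scale. Levels of 1 gene are compared between samples and never between genes. Summed signals and median levels of a list are likewise compared between samples only, and a sum is weighted towards the brightest probes of its list. The arrays lay on 3 slides: crypt 2, crypt 3, iFIPC 1 and iFIPC 3 shared 1 slide, crypt 1 lay with the FI arrays and iFIPC 2 with the iISC arrays. Crypt 2 and crypt 3 were closer to each other (SD of the log2 difference over genes 0.328) than any other pair within the 2 groups (0.673 to 0.79). They were not identical and were counted as separate samples, and results without either one are given for some genes and lists only.

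Among changes of 2-fold or more, rises outnumbered falls in iFIPC organoids. At an adjusted p below 0.05 (limma) without a fold threshold, 1869 genes were higher and 1933 lower. Of 14066 genes tested, 1322 rose (9.4%) and 754 fell (5.36%) in iFIPC relative to crypt organoids, together 14.8%, at an adjusted p below 0.05 in limma (Benjamini-Hochberg) and at least a 2-fold change, the threshold meant by rose, fell or called below. A gene was tested if it was well above background on all 3 arrays of at least 1 group, and 692 genes passed through the iFIPC arrays alone and 456 through the crypt arrays alone. A gene that passed only where it was high had to differ, so main lists below are also counted over the genes well above background on all 6 arrays, of which 6.43% rose and 4.8% fell, or with the number of risen genes tested through the iFIPC arrays alone. The median change over all tested genes was -0.08 on the log2 scale, and -0.26 when arrays were scaled to their median, where 1185 genes rose and 1068 fell (52.6% of the calls higher against 63.7%). Within the slide that held 2 arrays of each group, 1162 genes rose and 724 fell, and 1506 of those calls were among the 2076.

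**Figure D1:**
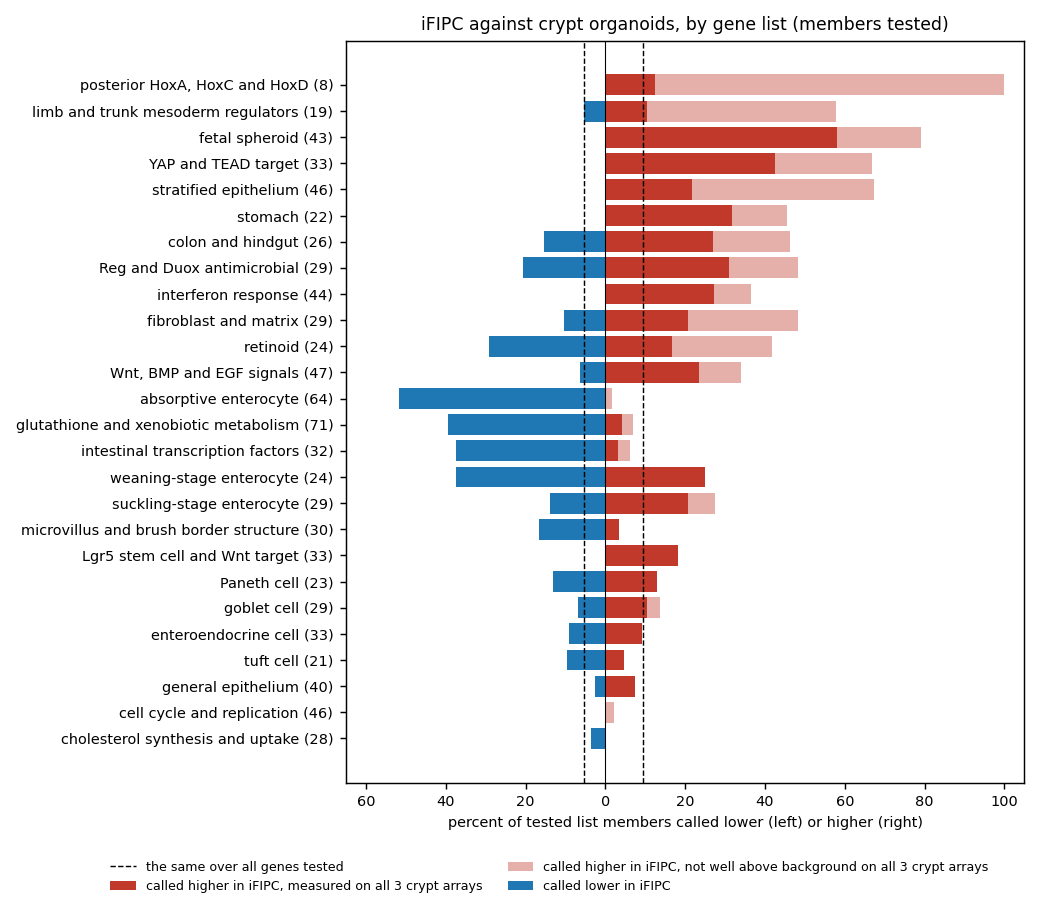
Percent of the tested members of each gene list (number tested in parentheses) called lower in iFIPC organoids, to the left, or higher, to the right; dark red bars count members well above background on all 3 crypt arrays, pale red bars the other members called higher, and dashed lines mark 5.36% and 9.4%, the shares over all genes tested. Fetal spheroid, YAP and posterior Hox genes lie far to the right, absorptive enterocyte and xenobiotic genes to the left, and cell cycle and cholesterol genes near 0.

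Both groups were epithelial. The adhesion genes Cdh1 and Epcam, the keratin gene Krt8, the microvillus gene Vil1 and Cdx2, the homeobox regulator of intestinal identity, were all 5 well above background on all 6 arrays. Epcam was at 4.93, 5.17 and 5.40 in iFIPC 1 to 3 and at 5.04, 4.85 and 4.79 in crypt 1 to 3, and the ranges overlapped. Vil1 differed by -0.17 ± 0.12 (log2, SE; limma adjusted p = 0.311). Of 40 general epithelial genes tested, 3 rose and 1 fell. The 1 became 0 without iFIPC 1, iFIPC 3 or crypt 3 and 3 without crypt 1. The proliferation gene Mki67 was at 4.95, 4.19 and 4.18 in iFIPC and 4.59, 4.64 and 4.75 in crypt organoids, and 1 of 46 cell cycle genes was called (2 without crypt 2): Cdkn2a, which encodes the cell cycle inhibitors p16 and p19. Cdkn2a was well above background on no crypt array and stood at least 47.6-fold higher in iFIPC (limma adjusted p = 4.74e-05), where "at least" here and below sets the mean of the bright group against the lowest signal well above background in the dim group.

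The positional code differed. The probe for Hoxa11 (chromosome 6, 52192107 to 52192166 in the array's mm9 annotation) read 3.12, 2.72 and 3.05 in iFIPC and -9.02, -8.57 and -8.85 in crypt organoids. It was well above background on all 3 iFIPC arrays and on no crypt array, a rise of at least 782-fold (limma adjusted p = 1.09e-05). Hoxa9 (chromosome 6, 52174269 to 52174328), measured on all arrays, read 1.59, 1.43 and 1.87 against -2.58, -2.34 and -2.67, a log2 rise of 4.16 ± 0.15 (SE, adjusted p = 1.21e-06). The iFIPC arrays lay close together, above all the crypt arrays. Hoxa10 read 2.57, 2.14 and 2.48 against -8.65, -4.64 and -6.81, with 1 crypt array well above background (adjusted p = 0.000203). The genes Hoxa13, Hoxc9, Hoxd8, Hoxd9 and Hoxd13 were also called higher, each well above background on no crypt array, by at least 5.2-fold (Hoxd8, limma adjusted p = 0.0316) to at least 19.9-fold (Hoxc9, adjusted p = 0.00106). Hoxd8 was not called without iFIPC 2, without iFIPC 3 or without any 1 crypt array, and its log2 change ranged from 3.78 to 5.07 when 1 array was left out. Of 16 posterior Hox genes listed, 15 had a probe and 8 were tested, 7 of them through the iFIPC arrays alone, so that Hoxa9 alone was measured on all 6 arrays; all 8 rose. Of 11 anterior HoxA and HoxB genes tested, 3 rose, among them Hoxa5 (log2 2.82 ± 0.59, adjusted p = 0.0067) and Hoxa7 (4.46 ± 1.04, adjusted p = 0.0113; not called with slide as a term).

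Several regulators of limb and trunk mesoderm were also higher in iFIPC organoids. Tbx15, a T-box gene of the trunk and limb skeleton and skin (chromosome 3, 99157901 to 99157960), read 1.82, 1.01 and 1.5 in iFIPC and -8.82, -8.38 and -7.98 in crypt organoids, at least 273-fold higher (limma adjusted p = 1.21e-06). Foxc1, a forkhead gene of mesoderm, read 1.63, 0.21 and 1.32 against -4.36, -8.64 and -6.63 (log2 7.60 ± 1.07, adjusted p = 0.000946, 1 crypt array well above background). The iFIPC and crypt arrays did not overlap for either gene. Twist1, which drives mesenchymal programmes, was at least 16.1-fold higher (adjusted p = 0.000228), Hand2 at least 11.1-fold (adjusted p = 0.00157) and the forelimb gene Tbx5 at least 6.26-fold (adjusted p = 0.000156), all well above background on no crypt array. In all, 11 of 19 tested limb and trunk genes rose, 9 of them tested through the iFIPC arrays alone; of the 8 measured on all 6 arrays, 2 rose, Tbx3 and Msx1 (the latter named after its values were seen). Tbx3 (log2 1.20 ± 0.36, adjusted p = 0.034) lost its call without any 1 of the 6 arrays, with changes from 1.11 to 1.27. The mesenchyme gene Prrx1 was not called (log2 -1.36 ± 0.89, adjusted p = 0.285).

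The other organoid groups differed in these genes. Hoxa9 read 0.93, 1.13 and 0.79 in iISC and -2.72, -2.99 and -2.98 in FI organoids, so the iFIPC level was 4.53 ± 0.15 (log2, SE) above FI (limma adjusted p = 8.08e-07) and 0.68 ± 0.15 above iISC (adjusted p = 0.0171, less than 2-fold). Tbx15 read 1.56, 1.63 and 0.97 in iISC and -7.68, -7.94 and -9.08 in FI organoids. Both organoid groups labelled induced were thus high for Hoxa9 and Tbx15, and both native groups were low. Hoxc9 and Tbx5 were different: both were well above background on all iFIPC arrays, and Hoxc9 read -8.79, -8.02 and -8.41 and Tbx5 -6.78, -7.82 and -8.18 in iISC. Against iISC, Hoxc9 (adjusted p = 0.00409), Tbx5 (adjusted p = 0.00105) and Twist1 (adjusted p = 0.00448) were called higher in iFIPC, whereas Hoxa11 (adjusted p = 0.444) and Tbx15 (adjusted p = 0.939) were not. These comparisons share the iFIPC arrays. In the MEF arrays, which the labels mark as re-analysed, Hoxa11 read 2.35 in MEF 1 and 1.60 in the mean of MEF 2 and 3 (nearly identical and counted as 1), and Tbx15 read 2.38 and 2.20.

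**Figure D2:**
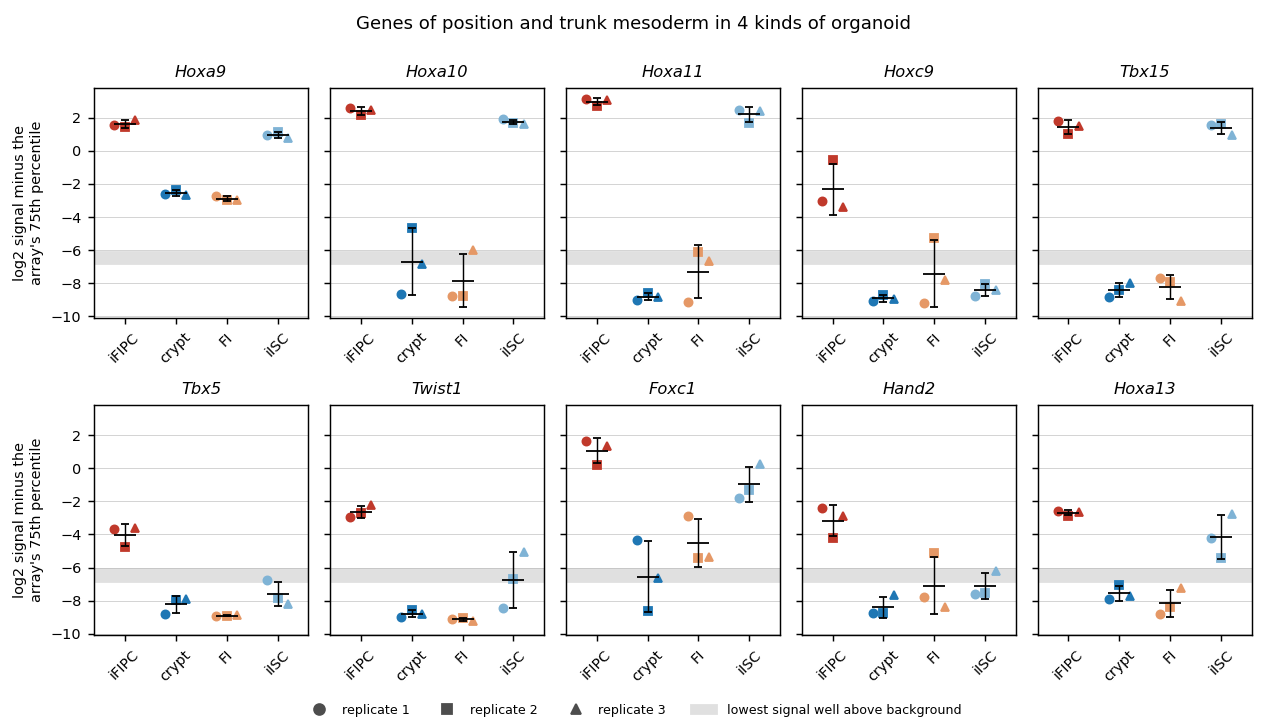
Levels (y axis, log2 signal minus the array's 75th percentile) of 10 genes of position and trunk mesoderm in iFIPC, crypt, FI and iISC organoids; symbols are the 3 arrays of each group, bars the mean and SD, and the grey band the lowest signal well above background. Hoxa9, Hoxa10, Hoxa11 and Tbx15 are high in iFIPC and iISC and low in crypt and FI organoids, and Hoxc9, Tbx5 and Hand2 are higher in every iFIPC array than in every iISC array.

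Genes of the fetal spheroid state rose together. Clu, which encodes clusterin and marks a regenerative stem cell state (chromosome 14, 66600151 to 66600210), read 7.15, 6.58 and 5.48 in iFIPC and 0.39, -2.04 and -1.95 in crypt organoids (log2 7.60 ± 0.84, limma adjusted p = 0.000274). Ly6a (Sca-1) read 3.67, 4.08 and 3.53 against -0.26, -3.92 and -3.43 (6.29 ± 1.19, adjusted p = 0.00424). Every iFIPC array was above every crypt array for both genes, and crypt 1 was the highest crypt array. Spp1, for the secreted matrix protein osteopontin, was at least 424-fold higher (adjusted p = 0.00392), and the gap junction gene Gja1 at least 22.2-fold (adjusted p = 0.000767), each well above background on no crypt array. The secreted inhibitor gene Wfdc2 rose by 10.75 ± 1.58, the mesothelin gene Msln by 7.70 ± 1.23 and Anxa1, a membrane-binding annexin, by 6.68 ± 0.87 (adjusted p of 0.00114, 0.00176 and 0.000649). Of 43 genes of this list tested, 34 rose and none fell, 9 of the 34 tested through the iFIPC arrays alone; of 34 measured on all 6 arrays, 25 rose. The list's median change was 3.70 on the log2 scale against -0.08 over all genes, and 27 rose within the shared slide. Outside the list, Ly6d, for a surface protein of epithelia, rose by 9.45 ± 1.20 (adjusted p = 0.000555) and the annexin gene Anxa8 by 9.79 ± 1.17 (adjusted p = 0.000445).

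FI organoids, the native fetal-type group, lay between iFIPC and crypt organoids for several of these genes. Clu read 1.67, 3.19 and 1.56 in FI organoids, and iFIPC exceeded them by 4.26 ± 0.84 (limma adjusted p = 0.00783). Ly6a read 2.78, 1.49 and -0.69 in FI organoids and the difference of 2.57 ± 1.19 was not called (adjusted p = 0.134). Against FI organoids, 17 of the 43 fetal spheroid genes were called higher in iFIPC and 2 lower, where 5.69% of all genes were called higher and 5% lower. Against iISC organoids, 19 of 43 were called higher and none lower, where 4.77% of all genes were called higher and 3.2% lower.

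Targets of YAP and TEAD were raised as well. Of 33 tested, 22 rose and none fell; 14 of the 25 measured on all 6 arrays rose. The connective tissue growth factor gene Ccn2 read 2.11, 2.62 and 3.02 in iFIPC and -4.24, -5.05 and -3.78 in crypt organoids (log2 6.94 ± 0.53, limma adjusted p = 4.74e-05). Ccn1, for a related matrix protein, read -0.28, 0.04 and -0.21 against -1.78, -2.10 and -1.49 (1.64 ± 0.18, adjusted p = 0.000242), while Ankrd1, for a nuclear ankyrin-repeat protein, was at least 15.9-fold higher (adjusted p = 0.000274), with no crypt array well above background. Neither Ccn2, Ccn1 nor Ankrd1 overlapped between the groups, as for 46.1% of all genes tested. Myof, for the membrane repair protein myoferlin, rose by 7.14 ± 0.48 (adjusted p = 2.4e-05). The list shares 9 genes with the fetal spheroid list, Ccn1, Ccn2, Areg, Ereg, Clu, Ly6a, Anxa1, Msln and Il33, so the counts of the lists are not separate. The bases upstream of Ankrd1 (GRCm38.p6, chr19:36119845-36120094, minus strand) and Ccn1 (chr3:145649986-145650135, minus strand) are shown because both genes rose and hold the letters GGAATG, the core that TEAD factors bind, in capitals (as CATTCC on the opposite strand of Ccn1).
Ankrd1: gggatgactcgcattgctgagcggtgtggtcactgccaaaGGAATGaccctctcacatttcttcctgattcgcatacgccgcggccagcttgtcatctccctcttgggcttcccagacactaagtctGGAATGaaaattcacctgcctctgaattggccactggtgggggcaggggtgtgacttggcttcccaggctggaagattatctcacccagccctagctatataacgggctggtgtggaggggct
Ccn1: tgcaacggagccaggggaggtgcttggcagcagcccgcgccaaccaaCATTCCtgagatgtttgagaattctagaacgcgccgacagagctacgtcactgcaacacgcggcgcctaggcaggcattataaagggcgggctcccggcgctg

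The Ankrd1 matches lie 210 to 205 and 123 to 118 bases before the RefSeq start and the Ccn1 match 103 to 98 bases before it. Within 250 bases upstream of the start, on either strand, GGAATG was found for 6 of the 14 called YAP genes that had a promoter in the RefSeq table, for 4 of 7 that were not called, and in 4153 of 32851 mouse promoters (12.6%). A match is a description of the sequence, not of binding.

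A group of stomach genes was higher in iFIPC organoids. Tff1, for a trefoil peptide of the stomach surface mucus (chromosome 17, 31298471 to 31298530), read 7.50, 7.38 and 4.77 in iFIPC and -2.50, -3.59 and -3.86 in crypt organoids (log2 9.87 ± 0.93, limma adjusted p = 0.000123). Gkn2, for gastrokine 2, its partner in that mucus, read 6.76, 2.62 and 3.04 against -9.09, -8.68 and -5.15 (11.78 ± 1.38, adjusted p = 0.000383, 1 crypt array well above background). All 3 iFIPC arrays were above all crypt arrays, iFIPC 3 being lowest for Tff1 and iFIPC 1 highest for Gkn2. The water channel gene Aqp5 rose by 7.52 ± 0.63, the gastric protease gene Ctse by 5.82 ± 0.64 and the surface antigen gene Psca by 5.41 ± 0.58, and the mucin gene Muc1 was at least 15.9-fold higher (adjusted p of 6.01e-05, 0.000266, 0.000223 and 0.000718). Muc5ac, the surface mucin of the stomach, read 0.62, -3.69 and -1.34 against -4.38, -4.08 and -4.14 (2.73 ± 0.80, adjusted p = 0.0314). Its call was lost without iFIPC 1, without iFIPC 3, without any 1 crypt array or in a fit of the 6 arrays alone, and its change ranged from 1.69 to 3.84 when 1 array was left out. Of 22 stomach genes tested, 10 rose and none fell (7 of 17 measured on all 6 arrays). Without crypt 1, and with slide as a term, 2 fell. Tff1 exceeded FI organoids by 10.45 ± 0.93 (adjusted p = 0.000201) and iISC organoids by 9.94 ± 0.93 (adjusted p = 0.000414). Of the stomach genes, 9 of 23 were called higher than in FI and 1 lower, where 5.69% of all genes were called higher and 5% lower. Against iISC, 10 of 21 were called higher and none lower, where 4.77% of all genes were called higher and 3.2% lower. Genes of the colon and hindgut were divided, with 12 of 26 higher (5 tested through the iFIPC arrays alone), among them the carbonic anhydrase gene Car2 (5.83 ± 0.80, adjusted p = 0.000792) and Retnlb (at least 23.3-fold, adjusted p = 0.000756). When 1 array was left out, between 8 (without crypt 2) and 10 colon and hindgut genes rose, and 8 did with slide as a term. Another 4 of 26 were lower, among them the chloride exchanger gene Slc26a3 (-2.55 ± 0.46, adjusted p = 0.00352) and Ceacam10 (-3.44 ± 0.35, adjusted p = 0.000168).

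Genes of stratified squamous epithelium were present in iFIPC organoids, most of all on 1 array; this list was written after the values had been seen and is a description. Krt5, the basal cell keratin (chromosome 15, 101537514 to 101537573), read 2.70, -0.37 and 7.09 in iFIPC and -4.32, -4.22 and -4.20 in crypt organoids (log2 7.39 ± 1.5, limma adjusted p = 0.00604). Trp63, the master regulator of basal cells, read -1.91, -2.78 and 1.47 against -8.67, -8.32 and -8.22, with no crypt array well above background (at least 47.7-fold, adjusted p = 0.000504). iFIPC 3 was the highest array for both genes, and the other iFIPC arrays were still above all crypt arrays. The cornified envelope gene Ivl (involucrin) was at least 54.4-fold higher (adjusted p = 0.000825) and the surface protein gene Lypd3 rose by 8.59 ± 1.30 (adjusted p = 0.00137, 2 crypt arrays well above background), neither being called within the shared slide alone. Krt14, the partner of Krt5, read -2.29, -2.93 and 5.81 against -4.23, -4.39 and -4.44 and was not called (4.55 ± 1.81, adjusted p = 0.0896). The late differentiation gene Sprr2d read -4.49, -2.32 and 5.66 (at least 77.1-fold, adjusted p = 0.0265), and its call was lost without any 1 crypt array, with slide as a term, within the shared slide and in a fit of the 6 arrays alone, its log2 change ranging from 4.74 to 9.82 when 1 array was left out. Sprr3, Calml3 and Krtdap, named after their values were seen, were well above background on iFIPC 3 and on no other array of the 6. Of 46 genes tested, 31 rose, 21 of them tested through the iFIPC arrays alone (10 of 25 measured on all 6 arrays), and iFIPC 3 was the highest array for 26 of the 31. Their median level was -1.91, -1.0 and 2.76 in iFIPC 1 to 3 and -6.32, -6.64 and -6.75 in crypt 1 to 3. Without iFIPC 3, 28 rose, and without crypt 2, 24 did. Within the shared slide, which lacks iFIPC 2 and crypt 1, 13 rose. Gata3, a regulator of skin and other epithelia, was at least 19.8-fold higher (adjusted p = 0.00156).

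**Figure D3:**
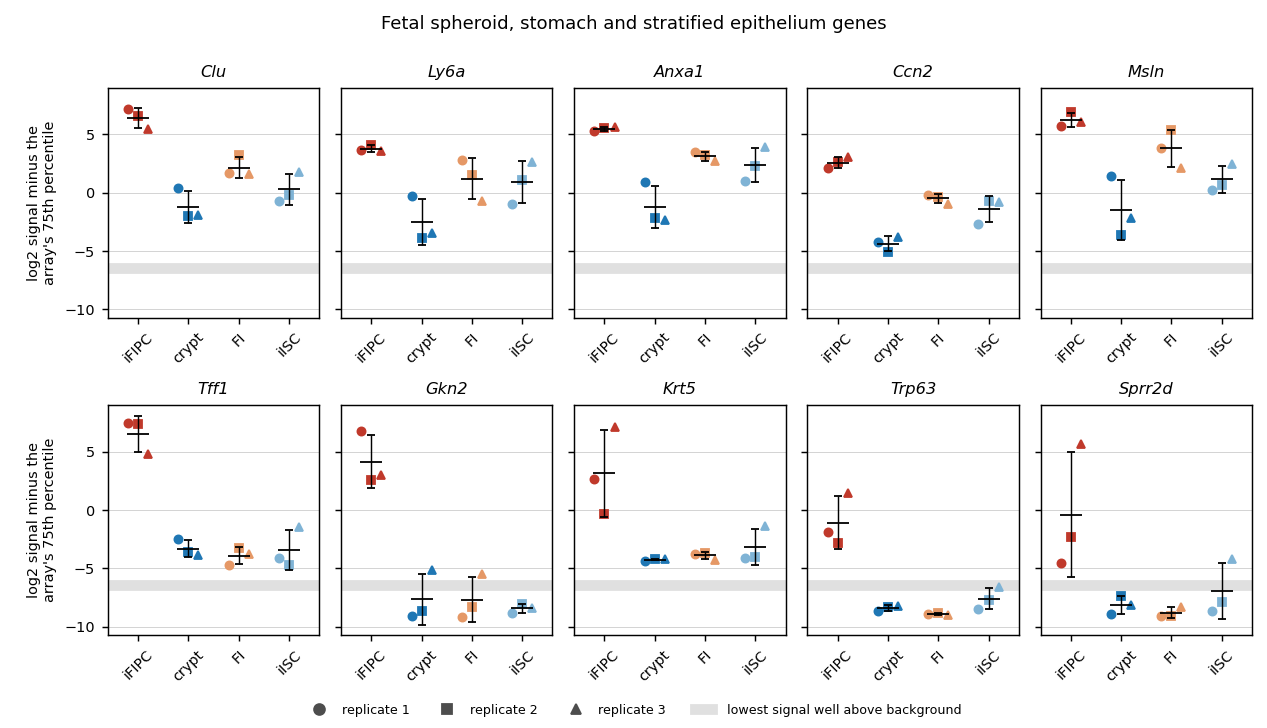
Levels (y axis, log2 signal minus the array's 75th percentile) of fetal spheroid and YAP genes (Clu, Ly6a, Anxa1, Ccn2, Msln), stomach genes (Tff1, Gkn2) and stratified epithelium genes (Krt5, Trp63, Sprr2d) in 4 kinds of organoid; symbols are arrays, bars the mean and SD, and the grey band the lowest signal well above background. iFIPC 3 (triangle) is the highest iFIPC array for Krt5, Trp63 and Sprr2d and the lowest for Clu and Tff1.

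Several markers of fibroblasts were higher in iFIPC organoids, while smooth muscle, endothelial and immune genes moved in both directions. Col1a1, a fibrillar collagen chain, read -1.17, 0.49 and -3.05 in iFIPC and -8.62, -8.46 and -8.32 in crypt organoids, at least 42.4-fold higher (limma adjusted p = 0.00466), against 7.09 in MEF 1 and 7.43 in MEF 2 and 3. iFIPC 2 was the highest and iFIPC 3 the lowest, and no crypt array was well above background. Col1a1 read -1.1, -7.42 and -5.93 in FI 1 to 3, so FI 1 lay near iFIPC 1. Thy1, another fibroblast marker, was well above background on 2 iFIPC arrays and read -8.59 in iFIPC 3. The matrix genes Fn1 (fibronectin, at least 64.3-fold, adjusted p = 0.000104) and Dcn (decorin, at least 19.7-fold, adjusted p = 5.18e-05) were also well above background on no crypt array, while Col1a2 was not called (2.44 ± 0.95, adjusted p = 0.0839) and Pdgfra was well above background on 1 iFIPC array. Of 29 fibroblast genes tested, 14 rose and 3 fell; of 18 measured on all 6 arrays, 6 rose, and the 14 became 9 without iFIPC 2 and 8 with slide as a term. The 3 lower genes were Fap, Spon2 and Fbln1 (the last named after its values were seen). They became 0 without crypt 3, 1 without iFIPC 1, iFIPC 3 or crypt 2, and 2 without iFIPC 2 or crypt 1. The summed signal of the list, as a multiple of the 75th percentile, was 42.9, 47.5 and 52.7 in iFIPC and 19.8, 19.8 and 20.8 in crypt organoids. This sum was highest in iFIPC 3, where Col1a1 was lowest, and the list shares S100a4 with the fetal spheroid list. Of 10 smooth muscle and pericyte genes tested, 3 rose, all tested through the iFIPC arrays alone, and 1 fell. Tpm2, for a tropomyosin, rose by 9.05 ± 0.86 (adjusted p = 0.00013, 1 crypt array well above background). The smooth muscle actin gene Acta2 differed by 0.14 (adjusted p = 0.466). The list's summed signal was 17.4 to 25 in iFIPC and 18.7 to 22.5 in crypt organoids. Of 9 endothelial genes tested, 2 rose, both tested through the iFIPC arrays alone, and 2 fell, and the defining markers Pecam1, Cdh5 and Kdr were well above background on none of the 6 arrays. The endothelial list summed to 1.71 to 2.17 in iFIPC and 3.34 to 3.48 in crypt organoids. Of 13 immune genes tested, 3 rose and 2 fell. Among the higher were the macrophage-associated genes Cd68 (3.14 ± 0.50, adjusted p = 0.00187; not called within the shared slide) and Cd14 (2.39 ± 0.54, adjusted p = 0.0101). The 2 lower were Itgam, also macrophage-associated, and Cd79b, and both lost their call when some single arrays were left out. Another macrophage gene, Csf1r, was not called and its estimate was lower in iFIPC (-1.79 ± 0.78, adjusted p = 0.119). The summed immune list was 134 to 153 in iFIPC and 149 to 159 in crypt organoids. It includes Lyz2, which is also on the Paneth list, so this sum does not measure immune cells alone. In bulk RNA, fewer cells of a type and less RNA per cell cannot be told apart, and the part of fibroblast RNA in the positional, matrix and YAP results was not tested.

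Hoxa11 read 2.72 to 3.12 in iFIPC and 2.35 and 1.60 in the MEF arrays, and Col1a1 -3.05 to 0.49 against 7.09 and 7.43. The MEF arrays were extracted with another version of the scanner software, so these levels are set side by side only. Col1a1 was highest in iFIPC 2 among the iFIPC arrays. Of the 8 posterior Hox genes that rose, iFIPC 2 was the lowest iFIPC array for 5 and the highest for 2. Of the 11 limb and trunk genes that rose, it was lowest for 6 and highest for 3. Whether fibroblast RNA had a part in these levels was not tested.

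The absorptive programme of the enterocyte was lower in iFIPC organoids. Of 64 enterocyte genes tested, 33 fell and 1 rose, where 5.36% of all genes fell, with a list median of -1.79 on the log2 scale; 32 of the 33 were well above background on all iFIPC arrays. Fabp1, the liver-type fatty acid binding protein (chromosome 6, 71154906 to 71154965), read -2.71, 4.22 and 0.65 in iFIPC and 8.03, 8.34 and 8.27 in crypt organoids (-7.49 ± 1.64, limma adjusted p = 0.00852). Slc2a2, the glucose transporter GLUT2, read -3.94, 0.60 and -2.33 against 2.70, 3.70 and 3.24 (-5.10 ± 0.95, adjusted p = 0.00404). The ranges did not overlap, and iFIPC 1 was the lowest array, as for 27 of the 33 genes that fell. The brush border peptidase gene Dpp4 (-5.23 ± 0.69) and Enpep (-4.96 ± 0.66) fell (adjusted p of 0.000691 and 0.000701). Sucrase-isomaltase, Sis, a marker of the weaned gut, read 4.87, 7.30 and 6.63 against 7.22, 7.95 and 7.83 and was not called (-1.40 ± 0.69, adjusted p = 0.163). Cubn, the receptor cubilin, which takes up vitamin B12 with its partner Amn, was the 1 gene of the list that rose: 0.08, 2.65 and 2.69 against -5.29, -6.07 and -7.13 (7.97 ± 1.00, adjusted p = 0.000531), with 2 of 3 crypt arrays well above background. Amn, which is not on this list, fell by 3.16 ± 0.38 (adjusted p = 0.000463). Without crypt 2, 21 enterocyte genes fell, and 22 without crypt 3; within the shared slide 29 did. Of 30 microvillus structure genes, 5 fell (3 without iFIPC 1) and 1 rose, Baiap2l2 falling by 2.34 ± 0.18 (adjusted p = 4.74e-05). Against FI organoids, 10 of 64 enterocyte genes were called lower in iFIPC and 1 higher, where 5% of all genes were called lower. The list's median difference from FI was -0.22. Against iISC organoids, 15 of 64 were called lower, where 3.2% of all genes were, with a list median of -1.38. The median level of the 33 genes that fell was -1.06, 1.74 and 1.02 in iFIPC 1 to 3 and 1.17, 0.92 and 2.35 in FI 1 to 3. Dpp4 differed from FI by far more than the list median (-5.14 ± 0.69, adjusted p = 0.00168) and read 2.32, 2.01 and 2.35 there.

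**Figure D4:**
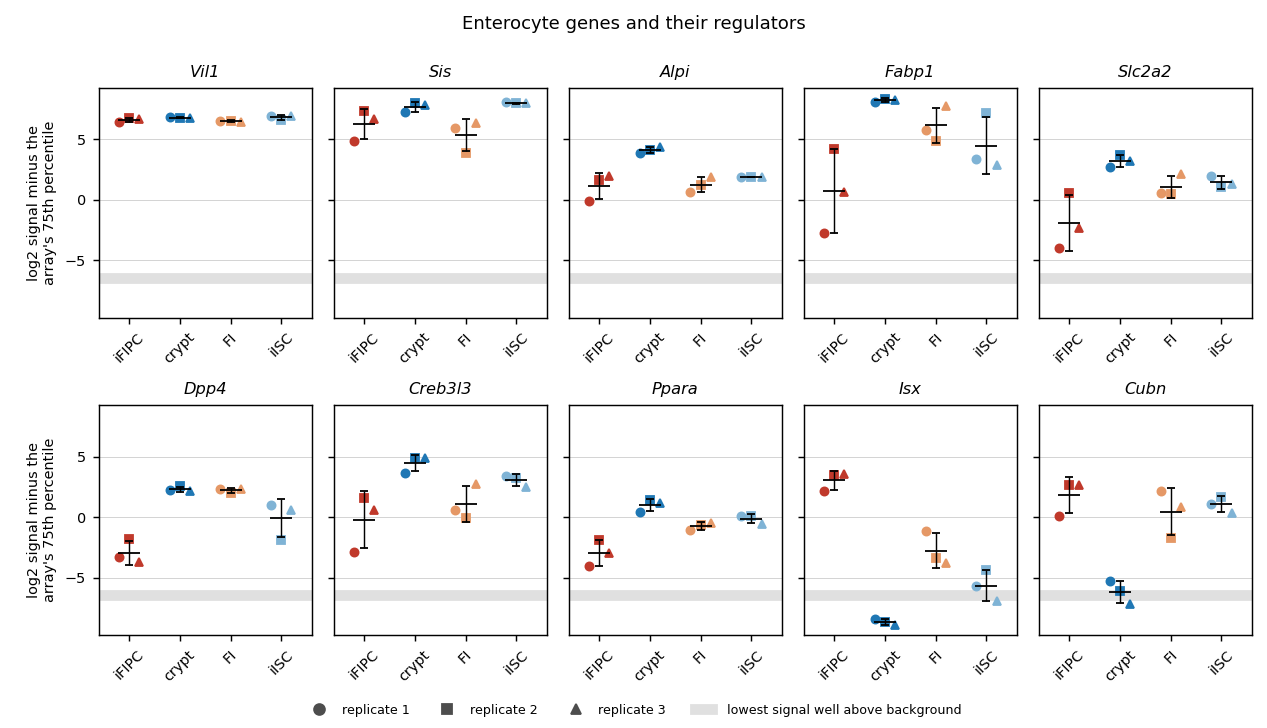
Levels (y axis, log2 signal minus the array's 75th percentile) of enterocyte genes (Vil1, Sis, Alpi, Fabp1, Slc2a2, Dpp4, Cubn) and regulators (Creb3l3, Ppara, Isx) in 4 kinds of organoid; symbols are arrays, bars the mean and SD, and the grey band the lowest signal well above background. Vil1 lies near 6.7 in all groups, Fabp1, Slc2a2 and Dpp4 are lower in every iFIPC array than in every crypt array, and Isx and Cubn are higher.

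Several regulators of the enterocyte also fell. Creb3l3, which controls triglyceride handling genes, read -2.83, 1.61 and 0.63 in iFIPC and 3.68, 4.85 and 4.85 in crypt organoids (log2 -4.66 ± 1.07, limma adjusted p = 0.0107; not called within the shared slide). The fatty acid receptor gene Ppara (-3.96 ± 0.48, adjusted p = 0.000469), Hnf4g, for a nuclear receptor of differentiated enterocytes (-2.17 ± 0.21, adjusted p = 0.000147), and the vitamin D receptor gene Vdr (-1.89 ± 0.33, adjusted p = 0.00283) fell too. Gata4, which marks the proximal intestine and represses ileal genes there, read -6.36, -3.50 and -5.48 against -0.72, -0.96 and -1.01 (-4.22 ± 0.60, adjusted p = 0.000995). All iFIPC arrays were below all crypt arrays for these genes. Foxa1 fell by 3.17 ± 0.39 and read 0.62, 0.38 and 0.57 in FI and -3.76, -3.89 and -3.37 in iISC organoids, so that iFIPC was lower than FI (adjusted p = 0.000476) and not called against iISC (adjusted p = 0.577). Of 32 intestinal transcription factor genes, 12 fell by their brightest probe and 2 rose, Isx and Klf4; Gata6 is among the 12, and its probes disagree.

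The reported conversion factors of this system, Hnf4a, Foxa3, Gata6 and Cdx2, were well above background on all arrays. Cdx2 read 3.77, 4.41 and 3.58 in iFIPC and 4.95, 5.20 and 5.22 in crypt organoids and fell by 1.20 ± 0.22 on the log2 scale (limma adjusted p = 0.00334). Foxa3, at 0.04 ± 0.24 (adjusted p = 0.924), and Hnf4a, at -0.63 ± 0.22 (adjusted p = 0.0591), were not called. The 3 tested probes of Hnf4a differed in sign (0.77, -0.73 and -0.63 in transcript order), and none was called. Cdx2 and Foxa3 each rest on 1 tested probe. Gata6 was called in opposite directions by different probes. The brightest probe, which starts at base 2599 of its transcript, read 1.60, 2.05 and 1.06 against 3.76, 4.10 and 3.94 and fell by 2.36 ± 0.23 (adjusted p = 0.000142). The Gata6 probes at bases 734 and 1684 rose by 1.16 ± 0.36 and 1.69 ± 0.41 (adjusted p of 0.0431 and 0.0156 over 22410 probes), and the median of the probes put Gata6 higher by 1.43. No direction is therefore given for Gata6 as a gene, and why the probes differ was not tested; 16 of 638 called genes with several probes had probes of opposite sign.

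The bases upstream of the brush border phosphatase gene Alpi, which fell by 2.94 ± 0.47 on the log2 scale (limma adjusted p = 0.00191; not called within the shared slide alone), are shown because they hold CAAAGTCCA, a core bound by HNF4 receptors, in capitals (GRCm38.p6, chr1:87101607-87101706, minus strand), 19 to 11 bases before the RefSeq start.
Alpi: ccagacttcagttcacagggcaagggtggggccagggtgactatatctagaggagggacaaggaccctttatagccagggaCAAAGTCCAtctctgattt

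Among enterocyte genes with a promoter in the RefSeq table, these letters were found within 250 upstream bases, on either strand, for 3 of 27 that fell and 1 of 26 that were not called, and in 126 of 32851 promoters (0.384%).

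Metabolism of xenobiotics and retinoids shifted in parts. Of 71 genes of glutathione and xenobiotic metabolism tested, 28 fell and 5 rose (2 tested through the iFIPC arrays alone; 3 rose without iFIPC 3). Adh4, an alcohol dehydrogenase active on retinol, read -4.51, -1.65 and -2.61 in iFIPC and 3.17, 4.45 and 4.82 in crypt organoids (log2 -7.07 ± 0.86, limma adjusted p = 0.000489), and the glucuronosyltransferase gene Ugt2b5 fell by 4.38 ± 0.44 (adjusted p = 0.000159). Against these, the dioxin-responsive gene Cyp1b1 was at least 58.5-fold higher and Aldh3a1 at least 27.9-fold (adjusted p of 0.000104 and 0.000469), each well above background on no crypt array. Isx, an intestine-specific homeobox gene that represses uptake and cleavage of carotenoids (chromosome 8, 77417314 to 77417373), read 2.17, 3.47 and 3.55 against -8.41, -8.63 and -8.85, at least 838-fold higher (adjusted p = 2.4e-05) and the largest "at least" rise of all called genes. Isx read -1.11, -3.34 and -3.78 in FI and -5.63, -4.35 and -6.92 in iISC organoids, and iFIPC was higher than FI (5.81 ± 0.77, adjusted p = 0.00156). Bco1, for the carotene-cleaving enzyme that Isx is known to repress, read -2.76, -2.87 and -2.38 in iFIPC and 0.04, 2.33 and 2.25 in crypt organoids (-4.21 ± 0.81, adjusted p = 0.00451). Aldh1a3, which makes retinoic acid, was at least 391-fold higher (adjusted p = 0.000349) and Rarb, a retinoic acid receptor and target, at least 19.6-fold (adjusted p = 0.000731). The retinol-storing enzyme gene Lrat (-3.48 ± 0.45, adjusted p = 0.000585) and Aldh1a1 (-3.33 ± 0.62, adjusted p = 0.00386) fell. In all, 10 of 24 retinoid genes rose, 6 of them tested through the iFIPC arrays alone, and 7 fell; with slide as a term 6 rose.

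Stage markers of the enterocyte did not move in 1 direction. Of 29 suckling-stage genes tested, 8 rose (2 tested through the iFIPC arrays alone) and 4 fell, with Cubn and Clu among the higher and Amn among the lower. The 8 became 5 without iFIPC 3 or crypt 3, and the 4 that fell became 2 without iFIPC 1, iFIPC 3, crypt 2 or crypt 3. Of 24 weaning-stage genes tested, 9 fell and 6 rose. The 9 became 5 without crypt 2 and 6 without crypt 3, while the 6 became 4 without iFIPC 1, iFIPC 2 or any 1 crypt array and 5 without iFIPC 3. The weaning-stage list shares genes with the enterocyte list, among them Alpi, Cyp3a11, Treh and Slc2a5, which fell. It also shares the risen genes Duoxa2 with the antimicrobial list and Nt5e with the YAP list, so the counts of these lists are not separate. Arg2, the arginase of the weaned gut, fell by 5.44 ± 0.72 on the log2 scale (limma adjusted p = 0.00069) and Nt5e, which makes adenosine, rose by 5.80 ± 0.72 (adjusted p = 0.000523). The bile acid transporter gene Slc10a2, an ileal marker, rose by 5.29 ± 1.24 (adjusted p = 0.0116; not called with slide as a term) and read -0.66, 0.40 and 1.17 against -5.68, -4.87 and -4.40, while Fabp6, another ileal gene, was well above background on none of the 6 arrays. Of 19 imprinted growth genes tested, 8 rose (4 tested through the iFIPC arrays alone; 5 rose within the shared slide) and 1 fell. H19 rose by 2.93 ± 0.71 (adjusted p = 0.0143), Grb10 by 4.22 ± 0.74 (adjusted p = 0.00284). Igf2 was not called (-0.40 ± 1.5, adjusted p = 0.865). Igf2bp1, for an oncofetal RNA-binding protein, was at least 22.3-fold higher (adjusted p = 0.00177) and read -4.07, -3.76 and -2.73 in FI organoids, and Lin28b was well above background on none of the 6 arrays.

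Antimicrobial genes moved in both directions. Reg3a, for a secreted lectin, read -3.16, -0.92 and -3.14 in iFIPC and 3.76, 6.00 and 6.11 in crypt organoids (log2 -7.70 ± 1.01, limma adjusted p = 0.000672), Reg1 fell by 5.63 ± 1.09 (adjusted p = 0.00471) and Reg3d was at least 25.9-fold lower (adjusted p = 2.4e-05). Duoxa2, the maturation factor of the peroxide-forming oxidase Duox2, read 2.30, 1.24 and 0.50 against -3.15, -3.86 and -3.49 (4.85 ± 0.69, adjusted p = 0.001), the iron-binding protein gene Ltf rose by 4.95 ± 0.71 and the acute-phase gene Saa2 by 8.09 ± 1.69 (adjusted p = 0.00682, 1 crypt array well above background). Reg3b, another lectin gene, read 6.50, 6.92 and 6.64 against 4.28, 4.66 and 4.71 (2.13 ± 0.70, adjusted p = 0.0469). It lost its call without any 1 of the 6 arrays, with changes from 2.00 to 2.23. Reg3g was not called (1.72 ± 0.86, adjusted p = 0.167). Neither Reg3a, Reg3b nor Duoxa2 overlapped between groups. Of 29 genes of this list tested, 14 rose and 6 fell (9 and 5 of 23 measured on all 6 arrays). Without crypt 3, 10 rose and 5 fell.

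Interferon response genes rose in part, with iFIPC 3 highest. Of 44 tested, 16 rose and none fell (12 of 39 measured on all 6 arrays); the median level of the 16 was -2.38, -1.38 and 0.15 in iFIPC 1 to 3, and iFIPC 3 was highest for 11. The chemokine gene Cxcl10 read -1.85, -2.13 and -0.78 in iFIPC and -5.06, -4.85 and -5.10 in crypt organoids (log2 3.41 ± 0.47, limma adjusted p = 0.000854), and Gbp2, for an interferon-induced GTPase, was higher by at least 8.75-fold (adjusted p = 0.0013). The sensor of nucleic acids Zbp1 rose by 2.47 ± 0.20 (adjusted p = 5.79e-05). When 1 array was left out, between 11 (without iFIPC 3, crypt 2 or crypt 3) and 20 (without iFIPC 1) rose, and within the shared slide 9 did. The upstream bases of Cxcl10 (GRCm38.p6, chr5:92348890-92349139, minus strand) and Gbp2 (chr3:142620563-142620662, plus strand) are shown because they hold an interferon-stimulated response element (GAAA, any 2 bases, then GAAAC) in capitals (on the opposite strand of Gbp2).
Cxcl10: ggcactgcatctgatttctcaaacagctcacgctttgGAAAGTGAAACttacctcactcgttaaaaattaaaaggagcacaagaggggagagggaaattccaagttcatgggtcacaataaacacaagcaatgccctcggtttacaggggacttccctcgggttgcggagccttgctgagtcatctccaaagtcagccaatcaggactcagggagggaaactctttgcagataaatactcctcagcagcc
Gbp2: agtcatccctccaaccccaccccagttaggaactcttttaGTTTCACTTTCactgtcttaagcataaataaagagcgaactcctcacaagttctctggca

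The match lies 213 to 203 bases before the RefSeq start of Cxcl10 and 60 to 50 before that of Gbp2. Within 250 upstream bases, on either strand, it was found for 6 of 12 called interferon genes with a listed promoter (Apol9b, Cxcl10, Gbp2, Gbp3, Ifit3 and Isg15, the last 2 losing their call when single arrays were left out), for 5 of 21 that were not called, and in 225 of 32851 promoters (0.685%).

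Some genes of the BMP, Wnt and EGF pathways rose, and the defining stem cell genes were not called. Targets of bone morphogenetic protein signalling and an inhibitor of the Smad branch rose: Id1 read 4.16, 3.03 and 3.38 in iFIPC and 1.45, 0.92 and 1.20 in crypt organoids (log2 2.33 ± 0.33, limma adjusted p = 0.000949), Id3 rose by 2.99 ± 0.40 and Smad7 by 1.84 ± 0.15 (adjusted p = 5.35e-05). The ligand gene Wnt10a rose by 4.94 ± 0.80 (2 crypt arrays well above background; not called within the shared slide) and the EGF-family ligand gene Ereg was at least 10.6-fold higher (adjusted p = 0.000797), while Nrg4, another ligand of that family, fell by 3.70 ± 0.51 (adjusted p = 0.000849). Of 47 genes of these pathways tested, 16 rose (5 tested through the iFIPC arrays alone) and 3 fell. Without crypt 2, 13 rose. Lgr5 itself read 2.77, 1.63 and 3.50 against 3.68, 2.96 and 3.35 and was not called (-0.70 ± 0.48, adjusted p = 0.306), nor were the stem cell genes Ascl2 (-0.18) and Olfm4 (-0.34). The groups overlapped for Lgr5. Of 33 genes of the Lgr5 and Wnt list, 6 rose, Prom1 by 1.82 ± 0.24 (adjusted p = 0.000687); the 6 became 1 without iFIPC 3, 2 without iFIPC 2, crypt 2 or crypt 3, 4 without iFIPC 1 and 5 without crypt 1.

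Markers of the secretory lineages were present in both groups. Lyz1 (Paneth) read 7.31, 6.66 and 7.08 in iFIPC and 6.87, 6.64 and 6.87 in crypt organoids, and Muc2 (goblet) 1.02, 1.06 and 1.47 against 1.80, 0.33 and 0.04; neither was called (limma adjusted p of 0.746 and 0.555). Chga (enteroendocrine, log2 -0.57 ± 0.43, adjusted p = 0.351) and Dclk1 (tuft, -0.59 ± 0.32, adjusted p = 0.2) were not called. The hormone gene Sst (somatostatin) fell by 5.27 ± 1.07 (adjusted p = 0.006), with 2 of 3 iFIPC arrays well above background. In the other direction, the hormone gene Pyy rose, by 4.33 to 4.69 when 1 array was left out. The goblet gene Clca1 (3.54 ± 1.04, adjusted p = 0.0318) and the Paneth gene Mmp7 (1.23 ± 0.39, adjusted p = 0.042) rose too. Pyy, Clca1 and Mmp7 each lost their call without crypt 2 or without crypt 3. Of the lists for these lineages, 3 of 23 Paneth, 4 of 29 goblet, 3 of 33 enteroendocrine and 1 of 21 tuft genes rose, and 3, 2, 3 and 2 fell. These shares were 13%, 13.8%, 9.09% and 4.76% higher, where 9.4% of all genes tested rose. The lower shares were 13%, 6.9%, 9.09% and 9.52%, where 5.36% of all genes fell. These counts turned on single arrays. No enteroendocrine gene rose without iFIPC 1, crypt 2 or crypt 3, 1 Paneth gene rose without crypt 2 or crypt 3. In turn, 2 goblet genes rose without iFIPC 1 and 7 without iFIPC 3. Further, 3 tuft genes rose without crypt 1 and 1 tuft gene fell without iFIPC 1, iFIPC 3 or crypt 1.

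Among the largest falls outside these groups were Gimap5, for a GTPase known from lymphocytes, which read -9.01, -8.32 and -7.87 in iFIPC and 0.55, -0.68 and -0.04 in crypt organoids (at least 90.9-fold lower, limma adjusted p = 0.000104), and the adhesion receptor gene Adgrd1 (at least 43.3-fold lower, adjusted p = 0.000166). No iFIPC array was well above background for either gene. Dnase1, for a secreted nuclease, fell by 6.90 ± 0.69 on the log2 scale (adjusted p = 0.000155). Among the largest rises were the extracellular matrix gene Efemp1 (at least 523-fold, adjusted p = 5.53e-05) and the cadherin gene Cdh13 (at least 279-fold, adjusted p = 0.000156), each well above background on no crypt array, and Efemp1 read 2.03, 2.92 and 0.77 in FI organoids.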

How the data were processed

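Total RNA of each sample was measured on a 1-colour Agilent mouse array, and the deposited scanner files hold processed intensity per spot, made by the authors with Agilent Feature Extraction (10.7.1.1 for the organoid arrays and 9.5.1.1 for the MEF arrays per the file headers; the submitters' processing notes name 9.5.1.1). The intensity values were scaled to the 75th percentile of gene probes on each array and taken as log2, and 38 probes with a missing value were left out. Probes were named by RefSeq accession (25001), symbol (5960) or synonym (1767), 8446 stayed unnamed, and each of 19721 genes was represented by its brightest probe. Limma 3.58.1 in R 4.3.3 fitted 1 mean per group over the 12 organoid arrays, with Benjamini-Hochberg adjustment. A probe well above background follows the deposited flag; array number and signal over background limit the precision. MEF levels are a description, and the iHep arrays were not used. The members and gene lists were chosen with earlier results of these data known. Named genes were anchors, up to 4 called members of a list in its main direction and 2 against it, the 15 largest rises and falls, and the 10 largest "at least" bounds each way. Other genes were named after their values were seen, among them Hoxa13, Hoxd8, Hoxd9, Ccn1, Ccn2, Ankrd1, Anxa1, Ctse, Psca and Muc1. The same holds for Krt5, Trp63, Gata3, Ltf, Reg1, Reg3b, Cxcl10, Zbp1, Id1, Id3, Smad7, Foxa1, Hnf4g, Vdr and Aldh1a1. On simulated data for this comparison over 14066 genes, 74 of 100 genes changed by 1.5 (log2) and 90 of 100 changed by 3 were called, as were 5 unchanged genes. The simulated noise was independent between arrays, with no slide effect and no background floor, so the real arrays may give lower rates. Same-numbered arrays of the groups had correlations of deviations of 0.11, 0.0344 and 0.0356, so the numbers were not taken as pairs. Alternatives covered scaling, background correction, the deposited value table, slide, filter, probe choice, threshold and each array left out.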

Additional observations from a re-analysis of the deposited data

How the results depend on the processing

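The total of 2076 called genes became 3802 with no fold threshold and 768 when limma tested against a log2 change of 1 (treat); the higher calls became 568 and the lower calls 200 with treat, and with no fold threshold 1869 were higher and 1933 lower, which ends the excess of higher calls. Over genes well above background on all 6 arrays, where fewer genes are tested, 829 rose. With 1 array left out, the total was 1665 to 2059, the higher calls 1078 to 1313 and the lower calls 567 to 757. With the replicate number as a block, which the labels do not say pairs the samples, 1986 genes were called (1269 higher, 717 lower). Slide as a term gave 1934 calls, quantile normalization 2070, normexp background correction 1555 and 2031 came from the deposited table of values. The reversed gene was Gata6, whose log2 change was 1.43 with the median of a gene's probes; the cause was not tested. Of 287 named called genes, 219 were called in each fit that left out 1 array, and 210 both with slide as a term and within 1 slide. Genes below background in 1 group carry only a bound there, so their fold is limited by the signal over background.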

Other observations

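The groups of genes below were assembled after their values had been seen, so their counts describe these arrays and carry no test of the group. Caveolae are flask-shaped membrane pits coated by caveolins and cavins. Cavin1, which encodes the main coat protein, read 5.36, 4.77 and 4.81 in iFIPC and 0.23, 0.62 and 0.00 in crypt organoids (log2 4.69 ± 0.37, limma adjusted p = 4.74e-05), and Cavin3 rose by 6.42 ± 0.50 (adjusted p = 4.79e-05). The caveolin genes Cav1 and Cav2 rose by 6.88 ± 0.96 and 5.69 ± 0.63 (adjusted p of 0.000902 and 0.000269), with 1 crypt array well above background for Cav1. Of 8 caveolae genes tested, 7 rose (3 of 4 measured on all 6 arrays), and Cavin1 read 7.16 in MEF 1. Of 24 chemokine and innate inflammation genes tested, 19 rose, 16 of them tested through the iFIPC arrays alone; of 6 measured on all 6 arrays, 3 rose. The neutrophil chemokine gene Cxcl5 read 1.56, 2.55 and -1.80 in iFIPC and was well above background on no crypt array (at least 171-fold, adjusted p = 0.0108; not called with slide as a term). Osmr, for a receptor subunit of oncostatin M, was at least 57.5-fold higher (adjusted p = 0.000137), Ptges, which makes prostaglandin E, rose by 6.69 ± 0.64 (adjusted p = 0.000127, 1 crypt array well above background), and Ccl20 was not called (0.62 ± 0.48, adjusted p = 0.362).

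Of 10 genes for UDP-glucuronosyltransferases tested, which conjugate drugs and bilirubin, 8 fell and none rose, Ugt2b5 by 4.38 ± 0.44 on the log2 scale (limma adjusted p = 0.000159). Genes of the Ugt1a cluster share exons and the Ugt2b genes are similar in sequence, so their probes may not tell the members apart. Of 6 genes of the urothelial plaque proteins called uroplakins, 5 rose, among them Upk3bl (3.91 ± 0.73, adjusted p = 0.00406) and Upk2 (at least 3.94-fold, adjusted p = 0.00105), while Upk3b was not called (-2.91 ± 1.28, adjusted p = 0.12). The 5 became 3 without crypt 2, 2 without crypt 3 and 2 within the slide that held 2 arrays of each group.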
